A study of Mus musculus with 9 samples.

Results

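The insulin-like growth factor (IGF) axis was followed through 10 mouse genes, namely the ligands Igf1 and Igf2, the receptors Igf1r and Igf2r, and the binding proteins Igfbp2, Igfbp3, Igfbp4, Igfbp5, Igfbp6 and Igfbp7. These genes were taken by symbol, through the Ensembl identifier in each deposited gene table, and are 10 of the 55471 genes listed. All 10 passed the filter on low counts that left 15362 genes for testing.

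As background, both ligands activate the Igf1r tyrosine kinase, which signals through insulin receptor substrates, PI3 kinase and AKT, whereas Igf2r captures IGF2 and carries it to lysosomes. The binding proteins hold IGFs outside the cell and are cut by proteases that release the ligand. Igfbp7 is a distant relative with low affinity for IGFs. In cartilage, IGF1 is known as an anabolic factor for chondrocyte growth, survival and matrix synthesis.

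The RNA came from primary articular chondrocytes of wild-type mice at postnatal day 5, taken from the knee joint surfaces of femur and tibia, and was sequenced as stranded mRNA libraries in 3 groups of 3 samples. Per the labels, cells were cultured for 3 days, exposed to virus at 400 MOI for 2 h and kept for 36 h before any drug. The labels also give 10% fetal bovine serum for all samples. The study's methods give another culture time and another MOI, with the same time of exposure to virus. They state no wait between the virus and 5-ASA. The Control group received a control virus (Ad-Control in the study's methods), the Ad-OSCAR group a virus that expresses OSCAR, a collagen receptor, and the Ad-OSCAR + 5-ASA group the same OSCAR virus followed by 5-ASA (5-aminosalicylic acid, an anti-inflammatory drug). According to the study's methods all cells stood on plates coated with COLpep, a collagen peptide that OSCAR binds. No group combined the control virus with 5-ASA, so the drug was measured only in OSCAR-overexpressing cells. The labels do not say whether replicates came from separate cultures or animals, and p-values therefore measure the spread between these samples, which may be technical.

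Libraries held 19733431 to 28192725 estimated counts. Levels are given as CPM (counts scaled to a common library total with TMM factors) for comparisons of 1 gene between samples and as the deposited TPM, which is scaled for transcript length, for comparisons between genes. Oscar checked the labels: it had 0.123 to 0.211 CPM in the Control samples, 6354 to 7112 CPM in Ad-OSCAR and 2946 to 3723 CPM in Ad-OSCAR + 5-ASA, with viral and endogenous transcripts counted together. The OSCAR transcript was thus lower in the drug-treated samples than in any untreated Ad-OSCAR sample, and its part in the 5-ASA differences below was not tested. All 11 chondrocyte markers examined, including Col2a1, Acan and Sox9, were lower in Ad-OSCAR than in Control. Their summed level was 38630 to 44340 CPM in Control, 2373 to 2704 CPM in Ad-OSCAR and 2833 to 3286 CPM with 5-ASA, where 5 of the 11 passed the edgeR test as higher than in Ad-OSCAR and none as lower. Summed fibroblast markers (9 genes) ran from 17960 to 19080 CPM in Control, 10750 to 11710 CPM in Ad-OSCAR and 13280 to 14620 CPM with 5-ASA. Of the 8 that could be tested, 3 were higher in Ad-OSCAR than in Control (Pdpn 1.29, Col3a1 0.72 and Cd34 0.38 on the log2 scale) and 5 were lower, and with 5-ASA 5 were higher and 1 lower than in Ad-OSCAR. Macrophage markers (6 genes) summed to 5.55 to 7.61, 13.1 to 14.0 and 11.6 to 11.9 CPM in the same order, with C1qa at 0 counts in all 9 libraries, and endothelial markers (5 genes) to at most 2.80 CPM, with Cldn5 at 0. Of the 3 macrophage markers that could be tested, 2 were higher in Ad-OSCAR than in Control, Cd68 (2.06 on the log2 scale) and Lyz2 (0.43). Csf1r (-0.47) was not called. Cd68 alone had means of 1.99, 8.21 and 6.30 CPM in the 3 groups. Osteoblast markers (5 genes) summed to 60.4 to 66.5, 38.9 to 40.1 and 45.8 to 48.1 CPM, adipocyte markers (4 genes, nearly all of it Fabp4) to 11.0 to 14.8, 28.2 to 31.4 and 26.9 to 31.2 CPM, and skeletal muscle markers (5 genes) to at most 1.68 CPM, with Myod1 at 0. Of the 3 osteoblast markers that could be tested, Ibsp (-2.74 on the log2 scale) and Sp7 (-2.89) were lower in Ad-OSCAR than in Control. Runx2 (0.36) was higher. The part of these marker differences in the IGF results was not tested, and in bulk samples fewer cells of a type and less RNA per cell cannot be told apart.

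The members lie on 7 chromosomes (GRCm38, GENCODE M21 annotation), each as a protein-coding gene. Igf2 spans chr7:142650766-142666816 on the minus strand, and Igf1 spans chr10:87858265-87937042 on the plus strand. Igf1r lies at chr7:67952827-68233668 (plus) and Igf2r at chr17:12682406-12769664 (minus). Igfbp2 at chr1:72824503-72852474 (plus) and Igfbp5 at chr1:72857932-72874884 (minus) face each other tail to tail with 5457 bases between their ends. Igfbp3 lies at chr11:7206086-7213923 (minus), 3539 bases from the end of Igfbp1, and Igfbp4 on the same chromosome at chr11:99041244-99054392 (plus). Igfbp6 lies at chr15:102144362-102149511 (plus) and Igfbp7 at chr5:77349240-77408041 (minus).

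Promoter windows of 250 bases before and 50 bases after the RefSeq start (GRCm38.p6) were found for 10 of 10 members, 14 windows in all. Among members that changed by more than 1 on the log2 scale in Ad-OSCAR, 7 windows hold an annotated GENCODE transcript start, and 4 are printed here, 1 for each gene. The 2 further Igf2 windows, with no match to the motifs searched, and the downstream Igfbp2 window, with 1 AP-1 site and no GC box, are left out. Igfbp6, the member that fell the most (-2.40 on the log2 scale), also changed by more than 1. It is not printed because its window holds no annotated GENCODE start. That window has 1 TATA box, 2 CCAAT boxes and no GC box, with 8 CpG at 49.7% G and C. The 4 printed windows are shown so that the start regions of the lowered Igf2, Igfbp2 and Igfbp5 can be set beside that of the raised Igfbp7. Capitals mark matches to 4 motifs on either strand. The TATA box was searched as TATAAA and the GC box as GGGCGG. The CCAAT box was searched by the letters of its name. The AP-1 site was searched as TGANTCA. No match overlaps another motif in these 4 windows.
Igf2, chr7:142657447-142657746, minus strand: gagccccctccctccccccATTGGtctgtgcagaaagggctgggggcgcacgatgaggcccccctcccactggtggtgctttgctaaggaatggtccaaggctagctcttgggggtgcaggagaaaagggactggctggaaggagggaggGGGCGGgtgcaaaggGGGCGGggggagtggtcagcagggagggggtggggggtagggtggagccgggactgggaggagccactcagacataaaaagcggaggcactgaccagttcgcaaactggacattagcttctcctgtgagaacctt
Igfbp2, chr1:72824230-72824529, plus strand: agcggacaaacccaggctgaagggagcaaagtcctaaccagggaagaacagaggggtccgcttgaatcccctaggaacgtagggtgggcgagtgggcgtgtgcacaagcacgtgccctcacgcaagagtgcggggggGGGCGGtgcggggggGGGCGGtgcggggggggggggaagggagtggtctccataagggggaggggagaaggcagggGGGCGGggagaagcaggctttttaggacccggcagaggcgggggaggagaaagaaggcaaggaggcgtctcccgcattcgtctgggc
Igfbp5, chr1:72874816-72875115, minus strand: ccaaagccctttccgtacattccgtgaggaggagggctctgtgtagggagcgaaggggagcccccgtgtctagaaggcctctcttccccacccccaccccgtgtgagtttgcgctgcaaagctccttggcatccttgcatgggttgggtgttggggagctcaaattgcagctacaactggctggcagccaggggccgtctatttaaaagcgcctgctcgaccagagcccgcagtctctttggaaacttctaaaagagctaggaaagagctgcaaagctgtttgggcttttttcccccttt
Igfbp7, chr5:77407996-77408295, minus strand: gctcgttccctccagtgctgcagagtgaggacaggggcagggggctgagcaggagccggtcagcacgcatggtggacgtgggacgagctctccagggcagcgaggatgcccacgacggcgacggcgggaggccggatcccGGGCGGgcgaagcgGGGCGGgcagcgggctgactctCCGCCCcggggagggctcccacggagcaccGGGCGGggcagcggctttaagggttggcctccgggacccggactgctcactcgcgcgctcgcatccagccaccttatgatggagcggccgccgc

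The Igfbp7 window holds 4 GC boxes, 33 CpG dinucleotides and 73.3% G and C, against medians of 7 CpG and 52.7% over the 32851 mouse windows of this length. The Igfbp2 window holds 3 GC boxes and 18 CpG at 67.0%, and the Igf2 window 2 GC boxes, 1 CCAAT box and 7 CpG at 63.3%. No match to the 4 motifs lies in the Igfbp5 window, which has 10 CpG at 56.3%. Over all windows, 35.7% hold a GC box, 37.4% a CCAAT box, 13.6% a TATA box and 7.81% an AP-1 site. Among the 14 member windows, 6 hold a GC box, 3 a CCAAT box, 2 a TATA box (Igfbp4 and Igfbp6) and 2 an AP-1 site (Igf1 and the downstream Igfbp2 window). A match is a description of letters and not evidence of binding.

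In Control chondrocytes, Igf2 was by far the most abundant member per length, at 5585 ± 456 TPM (mean ± SD, n = 3). Igfbp4 followed at 492 ± 33.9 TPM, then Igfbp7 at 271 ± 8.40, Igfbp5 at 139.6 ± 8.26, Igfbp3 at 113 ± 7.76 and Igf2r at 97.3 ± 0.960 TPM. Each of these neighbours in the order was separated from the next without overlap between samples. Igf1r (29.4 ± 0.737 TPM) and Igfbp6 (29.0 ± 2.45 TPM) overlapped each other, and so did the lowest pair, Igfbp2 (8.67 ± 0.311 TPM) and Igf1 (8.45 ± 2.46 TPM). In Ad-OSCAR the order was Igf2 (2129 ± 151 TPM), Igfbp7 (559 ± 43.1), Igfbp4 (314 ± 19.5), Igf2r (96.5 ± 3.57), Igfbp3 (77.2 ± 0.537), Igfbp5 (43.6 ± 1.95), Igf1r (23.8 ± 1.01), Igf1 (12.8 ± 1.89), Igfbp6 (5.57 ± 1.07) and Igfbp2 (4.09 ± 0.544 TPM), with overlap between the last pair alone. With 5-ASA the order of means was that of Ad-OSCAR. Its ends were Igf2 at 2332 ± 115 TPM and Igfbp2 at 4.18 ± 0.921 TPM, the latter overlapping Igfbp6 at 4.79 ± 1.27 TPM.

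**Figure D1:**
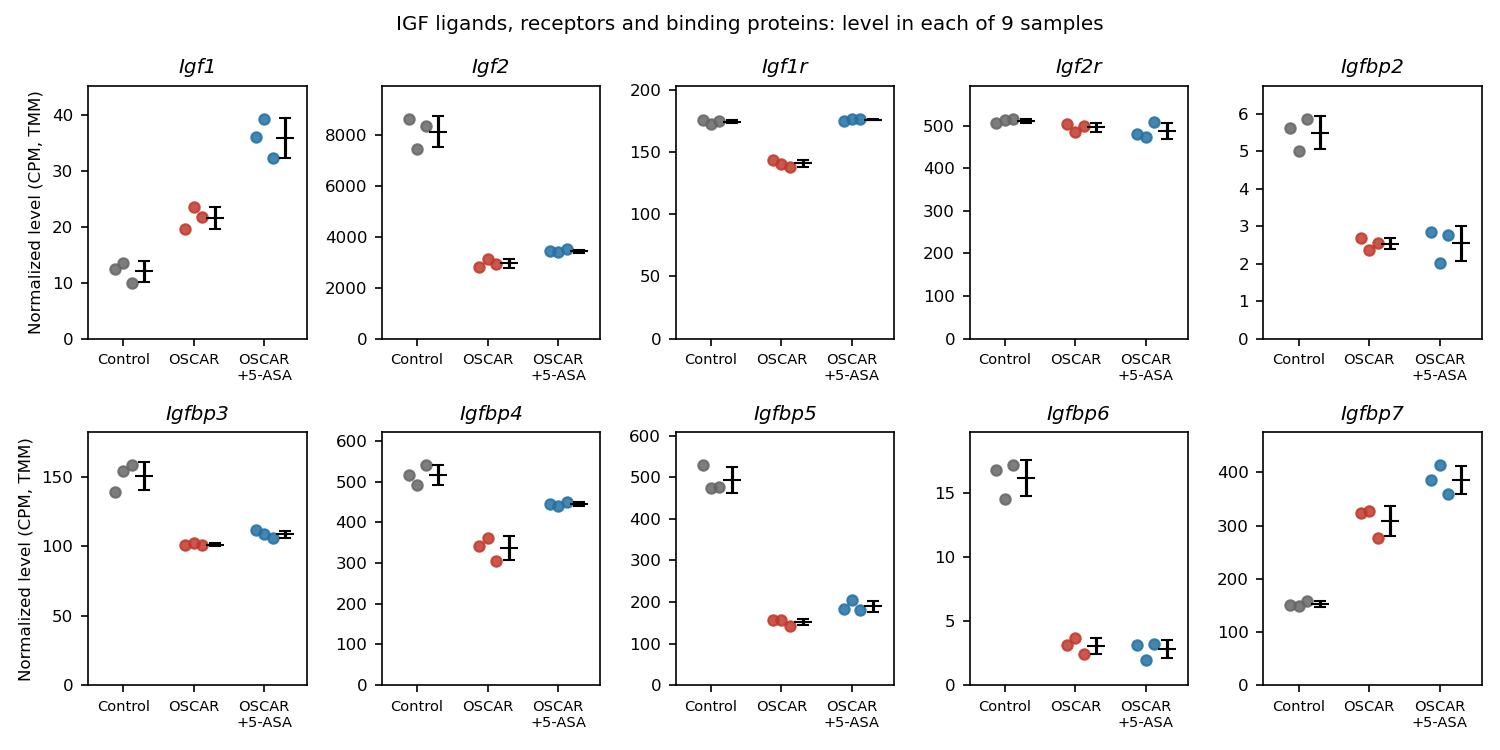
Level of each of the 10 genes (CPM after TMM scaling, axes from 0) in the 3 samples of Control, Ad-OSCAR and Ad-OSCAR + 5-ASA. Points are samples, the bar is the mean and its whiskers ± 1 SD (n = 3). Igf1 rises from 9.94 to 13.6 CPM in Control to 32.3 to 39.3 CPM with 5-ASA, Igf2 and Igfbp5 drop with Ad-OSCAR, and the Igf2r samples lie between 474 and 517 CPM in every group.

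The comparison of Ad-OSCAR with Control asks what overexpression of the receptor does to this axis. Among the 10 members, Igf1 and Igfbp7 were higher in Ad-OSCAR, 7 were lower (Igf2, Igf1r, Igfbp2, Igfbp3, Igfbp4, Igfbp5 and Igfbp6), and Igf2r was not called at a Benjamini-Hochberg adjusted p of 0.05 in edgeR's quasi-likelihood test. These 9 of 10 calls stand against 65.0% of all genes tested. Of all genes, 32.7% were called higher and 32.2% lower, so a high share of calls is not particular to the members. The median log2 fold change was -0.60 over the members and 0.02 over all 15362 genes. Under the study's own limits (absolute log2 fold change over 1.5), Igfbp5 and Igfbp6 passed, both lower, against 9.96% of all genes (4.57% higher, 5.39% lower). When counts were scaled by library size alone, the median over all genes moved to 0.15 and the calls over all genes to 6609 higher and 3907 lower, from 5031 and 4952. Under that scaling the 2 higher and 7 lower members were called in the directions given.

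The ligands moved in opposite directions. Igf2, the fetal growth ligand that dominates in these neonatal cells, had 8623, 7425 and 8340 CPM in Control and 2795, 3137 and 2934 CPM in Ad-OSCAR. The groups were far apart, and the log2 fold change was -1.46 (SE 0.05), 2.75-fold lower (edgeR adjusted p = 2.62e-14). Igf1 had 12.5, 13.6 and 9.94 CPM in Control and 19.6, 23.5 and 21.7 CPM in Ad-OSCAR. Every Ad-OSCAR sample lay above every Control sample, at a log2 fold change of 0.84 (SE 0.10; edgeR adjusted p = 1.11e-06). On the TPM scale the step was smaller, from 8.45 ± 2.46 to 12.8 ± 1.89 TPM, and the groups overlapped, with 6.42 to 11.2 TPM in Control and 10.8 to 14.6 TPM in Ad-OSCAR. The effective length that the authors' quantification gave Igf1 varied between 2008 and 3414 bases among samples. The ratio of Igf2 to Igf1 TPM was 452 to 904 in Control and 151 to 196 in Ad-OSCAR, so IGF2 transcripts outnumbered IGF1 transcripts in every sample of both groups.

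Igf2 overlaps the antisense transcript Igf2os, which had 258 to 383 counts in Control and 84 to 116 in Ad-OSCAR, and Gm49394 on its own strand, with 0 to 36 counts in Control and 0 elsewhere. Against the 157798 to 182712 Igf2 counts in Control these are small, although whether the counting used strand is not stated in the sources used here. H19, the noncoding RNA of the imprinted domain shared with Igf2, lies 72622 bases away at chr7:142575529-142578143. Its level was 6470 to 7046 CPM in Control and 184 to 196 CPM in Ad-OSCAR, a log2 fold change of -5.14 (SE 0.05; edgeR adjusted p = 9.70e-22), beside -1.46 for Igf2.

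Of the receptors, Igf1r was lower in Ad-OSCAR than in Control, and Igf2r did not pass the test. Igf1r, the signaling receptor, had 175.6, 173 and 175.5 CPM in Control and 144, 141 and 138 CPM in Ad-OSCAR. The groups did not overlap, and the log2 fold change of -0.31 (SE 0.04; edgeR adjusted p = 3.33e-06) is smaller in size than that of most genes tested, at percentile 43.2. Igf2r, the clearance receptor, had 507, 513 and 517 CPM in Control and 504, 485 and 500.5 CPM in Ad-OSCAR. The samples of the groups lay side by side without overlap, yet the log2 fold change was -0.04 (95% interval -0.13 to 0.04; edgeR adjusted p = 0.357), and it was 0.08 when counts were scaled by library size alone. The Igf2r to Igf1r TPM ratio went from 3.25 to 3.38 in Control to 4.02 to 4.08 in Ad-OSCAR. Airn, the antisense RNA that overlaps Igf2r, had 105 to 157 counts across the 9 libraries, against at least 9772 for Igf2r.

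Of the binding proteins, Igfbp6 and Igfbp5 fell the most. Igfbp6, whose protein prefers IGF2 over IGF1, had 16.8, 14.6 and 17.2 CPM in Control and 3.12, 3.69 and 2.40 CPM in Ad-OSCAR. No Ad-OSCAR sample came near the Control range, at a log2 fold change of -2.40 (SE 0.15), 5.27-fold lower (edgeR adjusted p = 8.91e-11). Igfbp5, a matrix-bound binding protein of skeletal cells, had 529, 475 and 477 CPM in Control and 155.7, 155.8 and 142 CPM in Ad-OSCAR. That is a log2 fold change of -1.71 (SE 0.06), 3.26-fold lower (edgeR adjusted p = 1.63e-14), with wide separation of the groups. Its tail-to-tail neighbour Igfbp2 had 5.62, 5.01 and 5.87 CPM in Control and 2.68, 2.38 and 2.55 CPM in Ad-OSCAR. It fell as well, by 1.11 on the log2 scale (SE 0.15; edgeR adjusted p = 3.52e-06), from counts of 111 to 122 per library to 58 to 79.

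Igfbp4, whose protein is known to restrain IGF action until it is cut, had 518, 491 and 540.4 CPM in Control and 342, 363 and 304 CPM in Ad-OSCAR. Igfbp3, the main carrier of IGFs in serum, had 139, 154 and 158 CPM in Control and 100.9, 102 and 100.5 CPM in Ad-OSCAR. Both groups of samples were clear of each other for either gene, at log2 fold changes of -0.62 (SE 0.06; edgeR adjusted p = 1.68e-08) for Igfbp4 and -0.57 (SE 0.05; edgeR adjusted p = 1.33e-08) for Igfbp3. Igfbp7 went the other way, with 150.5, 148 and 158 CPM in Control and 323, 328 and 277 CPM in Ad-OSCAR. The lowest Ad-OSCAR sample was well above the highest Control sample, and the log2 fold change was 1.02 (SE 0.06), 2.03-fold higher (edgeR adjusted p = 8.13e-11). An exon of Polr2b on the opposite strand overlaps an Igfbp7 exon, and Polr2b had 1657 to 2585 counts across the libraries.

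**Figure D2:**
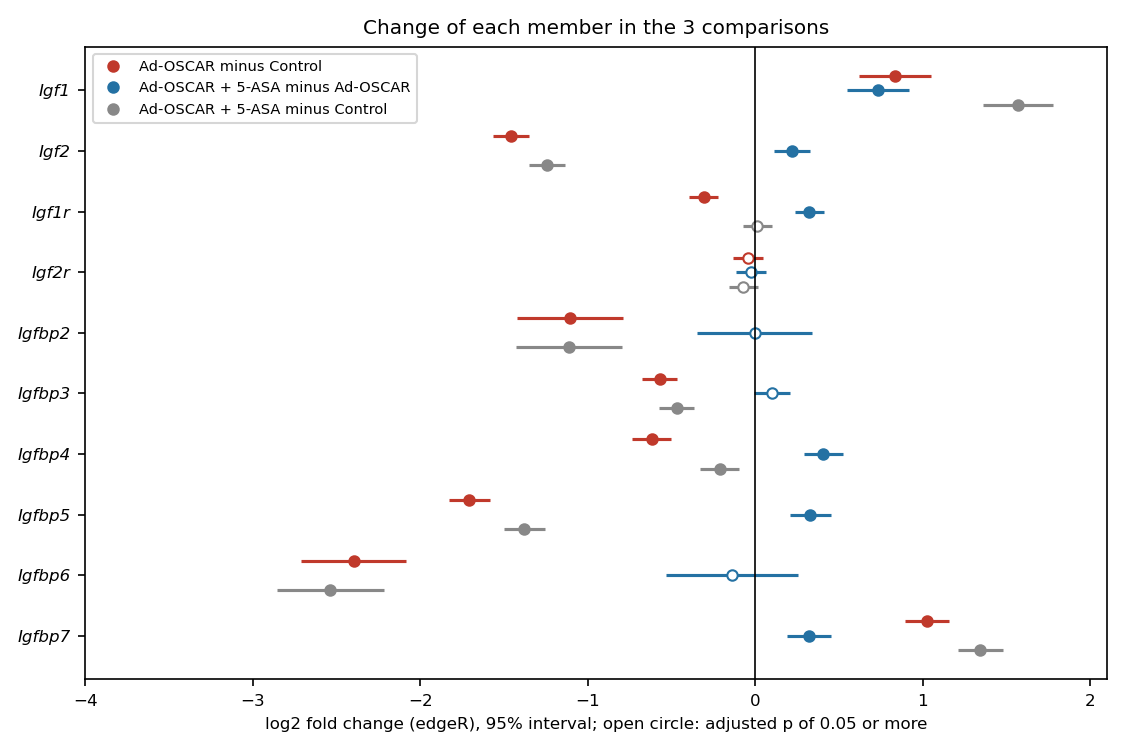
Log2 fold change of each of the 10 genes (x axis) with its 95% interval in the 3 comparisons from 1 edgeR fit of 9 samples. Filled points have an adjusted p under 0.05. In Ad-OSCAR against Control the values run from -2.40 for Igfbp6 to 1.02 for Igfbp7, and in Ad-OSCAR + 5-ASA against Ad-OSCAR the filled points all lie to the right of 0, up to 0.73 for Igf1.

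The make-up of the binding protein transcripts differed between Ad-OSCAR and Control, while the samples overlapped in summed TPM. The summed TPM of the 6 genes was 1053 ± 44.6 in Control and 1003 ± 62.3 in Ad-OSCAR (n = 3 each). In CPM, which is not scaled for length, the sum was lower in Ad-OSCAR without overlap, at 904 ± 66.5 against 1334 ± 40.1 CPM in Control. In Control, Igfbp4 supplied 46.7% ± 1.26 of the summed TPM and Igfbp7 25.7% ± 0.508. In Ad-OSCAR these shares were 31.3% ± 0.872 and 55.7% ± 1.08, so the leading gene was Igfbp7 in each of the 3 samples. Igfbp5 supplied 13.3% ± 0.936 in Control and 4.36% ± 0.132 in Ad-OSCAR, Igfbp6 2.75% ± 0.130 and 0.552% ± 0.0758, Igfbp3 10.7% ± 0.853 and 7.72% ± 0.525, and Igfbp2 0.824% ± 0.0322 and 0.409% ± 0.0636. Without Igfbp7, the 5 others summed to 782 ± 37.2 TPM in Control and 444 ± 21.0 TPM in Ad-OSCAR. Igf2 per unit of these 5 genes was 6.82 to 7.46 in Control and 4.46 to 5.00 in Ad-OSCAR, a lower ratio in every Ad-OSCAR sample. These shares and ratios are descriptions of transcript levels with no test, and the shares and the sum depend on scaling for length. Computed on CPM, Igfbp4 and not Igfbp7 led in Ad-OSCAR, at mean shares of 37.2% and 34.2%.

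**Figure D3:**
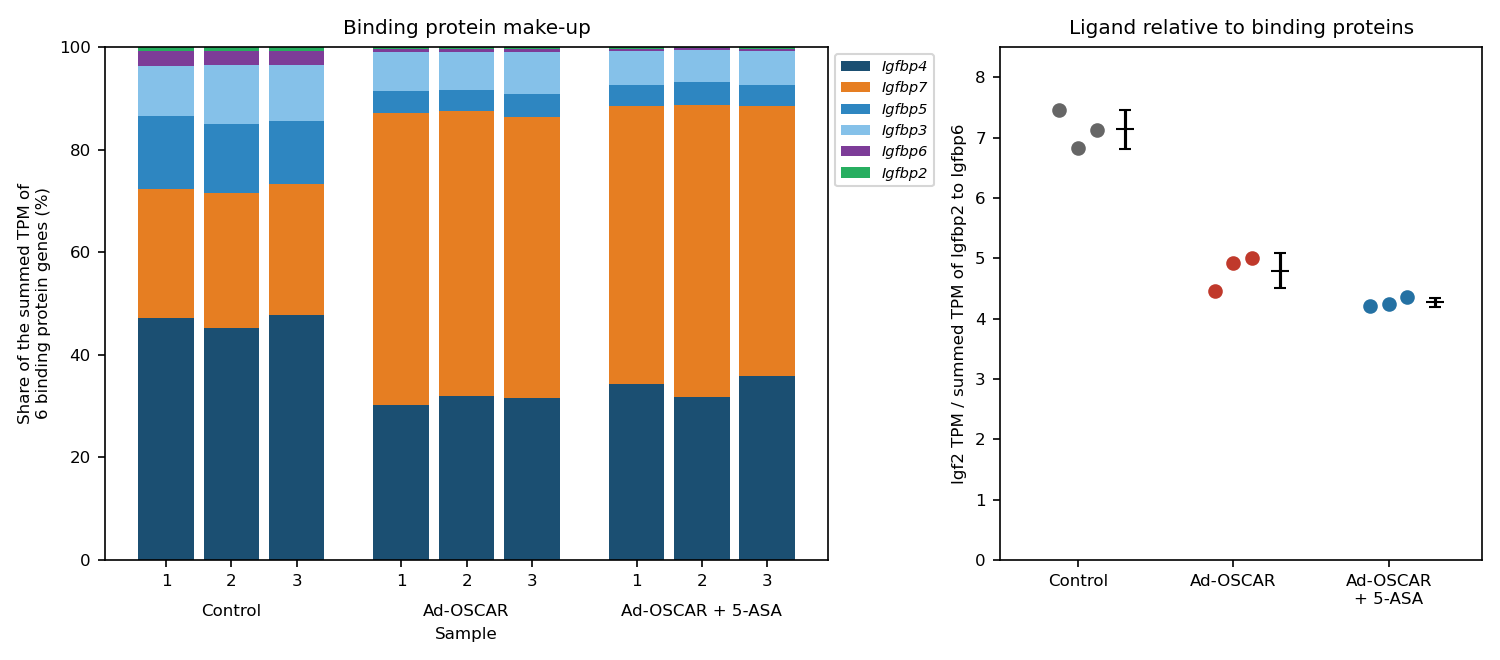
Left, share (%) of each of 6 binding protein genes in their summed TPM in each of the 9 samples. Right, Igf2 TPM divided by the summed TPM of Igfbp2 to Igfbp6, with points for samples and mean ± 1 SD (n = 3). Igfbp7 makes up 25.3% to 26.3% of the sum in Control and 52.6% to 56.9% in the 6 OSCAR virus samples, and the ratio is 6.82 to 7.46 in Control and 4.21 to 5.00 in those samples.

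The second comparison, of Ad-OSCAR + 5-ASA with Ad-OSCAR, asks what the drug does in OSCAR-overexpressing chondrocytes, and it shares the Ad-OSCAR samples with the first. Here 6 of 10 members were higher with 5-ASA (Igf1, Igf2, Igf1r, Igfbp4, Igfbp5 and Igfbp7), none was called lower, and Igf2r, Igfbp2, Igfbp3 and Igfbp6 were not called. Over all genes, 17.8% were called, 10.4% higher and 7.38% lower. The median log2 fold change was 0.27 over the members and -0.00 over all genes. Under the study's limits for the drug (over 1.5-fold with an unadjusted p under 0.05), Igf1 alone passed, as higher, against 4.15% of all genes (2.27% higher, 1.87% lower). The split of calls over all genes depended on the scaling, at 1598 higher and 1134 lower with TMM, 1057 and 2523 with library size alone, and 562 and 1487 with limma on log2(TPM + 1).

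Igf1 had 36.0, 39.3 and 32.3 CPM with 5-ASA, above the 19.6 to 23.5 CPM of untreated Ad-OSCAR in every sample. Its log2 fold change of 0.73 (SE 0.09), 1.66-fold (edgeR adjusted p = 1.28e-05), was larger in size than that of 96.3% of the genes tested. Over the 19 alternative fits the Igf1 value ran from 0.564 to 0.804, the lowest being under the study's 1.5-fold limit. Igf1 was called in all 19, at its weakest close to the threshold. Igf2 had 3421, 3382 and 3500 CPM with 5-ASA against 2795 to 3137 CPM without, a log2 fold change of 0.22 (SE 0.05; edgeR adjusted p = 0.00576). That call did not hold throughout. It was 0.13 with limma on log2(TPM + 1) (limma adjusted p = 0.257) and 0.17 without Ad-OSCAR replicate 1 (edgeR adjusted p = 0.0513). H19 was higher as well, at 299.6 to 318 CPM, by 0.71 on the log2 scale (SE 0.04; edgeR adjusted p = 1.19e-08).

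Igf1r had 175.5, 176 and 177 CPM with 5-ASA, against 138 to 144 CPM without, at a log2 fold change of 0.32 (SE 0.04; edgeR adjusted p = 2.57e-05). The treated samples fell within or just above the Control range of 173 to 175.6 CPM. Igf2r had 480, 474 and 509 CPM, overlapping the untreated samples, with a log2 fold change of -0.03 (95% interval -0.11 to 0.06; edgeR adjusted p = 0.730).

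Igfbp4 had 447, 440.2 and 449 CPM with 5-ASA, against 304 to 363 CPM in Ad-OSCAR. This was the widest step among the binding proteins, at a log2 fold change of 0.41 (SE 0.06; edgeR adjusted p = 4.87e-05). Igfbp5 had 183.5, 205 and 181 CPM, against 142 to 156 CPM, at 0.33 on the log2 scale (SE 0.06; edgeR adjusted p = 0.000572). Igfbp7, already high in Ad-OSCAR, had 385, 413 and 359 CPM, and its log2 fold change was 0.32 (SE 0.06; edgeR adjusted p = 0.00128). In each of these 3 genes all treated samples lay above all untreated ones.

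The binding proteins that were not called had intervals of different width. Igfbp3 had 111, 108 and 106 CPM with 5-ASA, above the untreated samples without overlap, at 0.10 on the log2 scale (95% interval -0.01 to 0.21; edgeR adjusted p = 0.189). Igfbp6 had 3.15, 1.97 and 3.24 CPM, mixed with the untreated samples, at -0.14 (95% interval -0.53 to 0.25; edgeR adjusted p = 0.677). Igfbp2 had 2.85, 2.01 and 2.77 CPM, also overlapping, at -0.00 (95% interval -0.35 to 0.34; edgeR adjusted p = 0.990). Igfbp6 had 54 to 82 counts and Igfbp2 55 to 74 counts per treated library, and differences within these intervals are not excluded. The parts of depth and of spread between samples in the width of the intervals were not tested.

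With the drug, the shares of Igfbp7, Igfbp4 and Igfbp5 overlapped those without it, and that of Igfbp3 did not. Igfbp7 supplied 54.6% ± 2.15 of the summed TPM with 5-ASA and 55.7% ± 1.08 without, Igfbp4 34.0% ± 1.99 and 31.3% ± 0.872, and Igfbp5 4.26% ± 0.198 and 4.36% ± 0.132. The share of Igfbp3 was lower, at 6.25% to 6.57% with 5-ASA and 7.32% to 8.31% without. The sum itself was 1203 ± 18.3 TPM with 5-ASA, above every untreated sample. Igf2 per unit of Igfbp2 to Igfbp6 was 4.21 to 4.36 with the drug and 4.46 to 5.00 without it, and the Igfbp7 to Igfbp5 TPM ratio was 12.6 to 13.2 and 12.3 to 13.2, against 1.79 to 2.09 in Control.

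The third comparison sets Ad-OSCAR + 5-ASA against Control, the wording of the study's methods for the drug, and shares its samples with the other comparisons. Here 8 of 10 members were called, 2 higher and 6 lower, against 63.2% of all genes (31.4% higher, 31.8% lower). Igf1 was 2.97-fold higher (log2 fold change 1.57, SE 0.10; edgeR adjusted p = 1.18e-10) and Igfbp7 2.54-fold higher (1.34, SE 0.06; edgeR adjusted p = 1.94e-12). On the low side were Igfbp6 (-2.54), Igfbp5 (-1.38), Igf2 (-1.24), Igfbp2 (-1.11), Igfbp3 (-0.47) and Igfbp4 (-0.21). Igf1r differed by 0.01 on the log2 scale (95% interval -0.07 to 0.10; edgeR adjusted p = 0.806) and Igf2r by -0.07 (95% interval -0.16 to 0.02; edgeR adjusted p = 0.147). The Igf2r difference passed the threshold with limma on log2(TPM + 1) (limma adjusted p = 0.0388) and without Ad-OSCAR + 5-ASA replicate 3 (edgeR adjusted p = 0.0462). Under the study's drug limits, 6 members passed, Igf1 and Igfbp7 as higher and Igf2, Igfbp2, Igfbp5 and Igfbp6 as lower, against 29.9% of all genes (14.6% higher, 15.3% lower).

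Other genes of the pathway were counted in 3 lists. Among 13 further ligands, carriers, Igf2 mRNA-binding proteins, H19 and growth hormone response genes, 9 could be tested. In Ad-OSCAR against Control 2 of them were higher, Socs2 (0.65) and the growth hormone receptor Ghr (0.25), all values being log2 fold changes. Lower were 5, namely H19, Igfals (-3.13), Igf2bp3 (-0.33), Stat5a (-0.21) and Stat5b (-0.14), the last near the threshold (edgeR adjusted p = 0.0467). Of these, H19 met the rule for naming and the rest are named after their values were seen. Igfals, the acid-labile subunit of serum IGF complexes, had 36 to 48 counts per library in Control and 5 to 8 in Ad-OSCAR. The insulin genes Ins1 and Ins2, Igfbp1 and Igfbpl1 had 0 counts in all 9 libraries, where a count of 0 allows up to 3 counts per library, counting error only. With 5-ASA, H19 was called higher and the other 8 were not called.

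All 7 genes of the list of proteases that cut IGF binding proteins, with their inhibitors, were called in Ad-OSCAR, Stc1 near the threshold (edgeR adjusted p = 0.0405). The count was 5 with limma on log2(TPM + 1) and 6 with DESeq2, RLE scaling, no filter, robust dispersion, the replicate number as a block, and without Control replicate 1 or 2, Ad-OSCAR replicate 1 or 3 or Ad-OSCAR + 5-ASA replicate 1. Pappa, which cleaves Igfbp4 and Igfbp5, was higher (log2 fold change 0.83, SE 0.05; edgeR adjusted p = 4.92e-11), at 249 to 274 CPM against 145 to 153 CPM in Control. Its inhibitors Stc2 (0.49) and Stc1 (0.12) and the serine protease Htra1 (0.26) were also higher. Lower were Htra3 (-1.32, SE 0.08; edgeR adjusted p = 8.35e-11), at 19.2 to 23.8 CPM against 47.3 to 59.4 CPM, Adam12 (-1.44, SE 0.11; edgeR adjusted p = 1.35e-09), at 4.22 to 4.73 CPM against 11.6 to 12.9 CPM, and Pappa2 (-1.76), which had 2 to 11 counts per library. With 5-ASA, 4 were higher (Stc2 0.45, Stc1 0.30, Pappa 0.23 and Pappa2 1.89) and none was called lower, but with limma on log2(TPM + 1) 1 of the 7 was called. Htra3 and Adam12 met the rule for naming, and the other 5 are named after their values were seen.

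**Figure D4:**
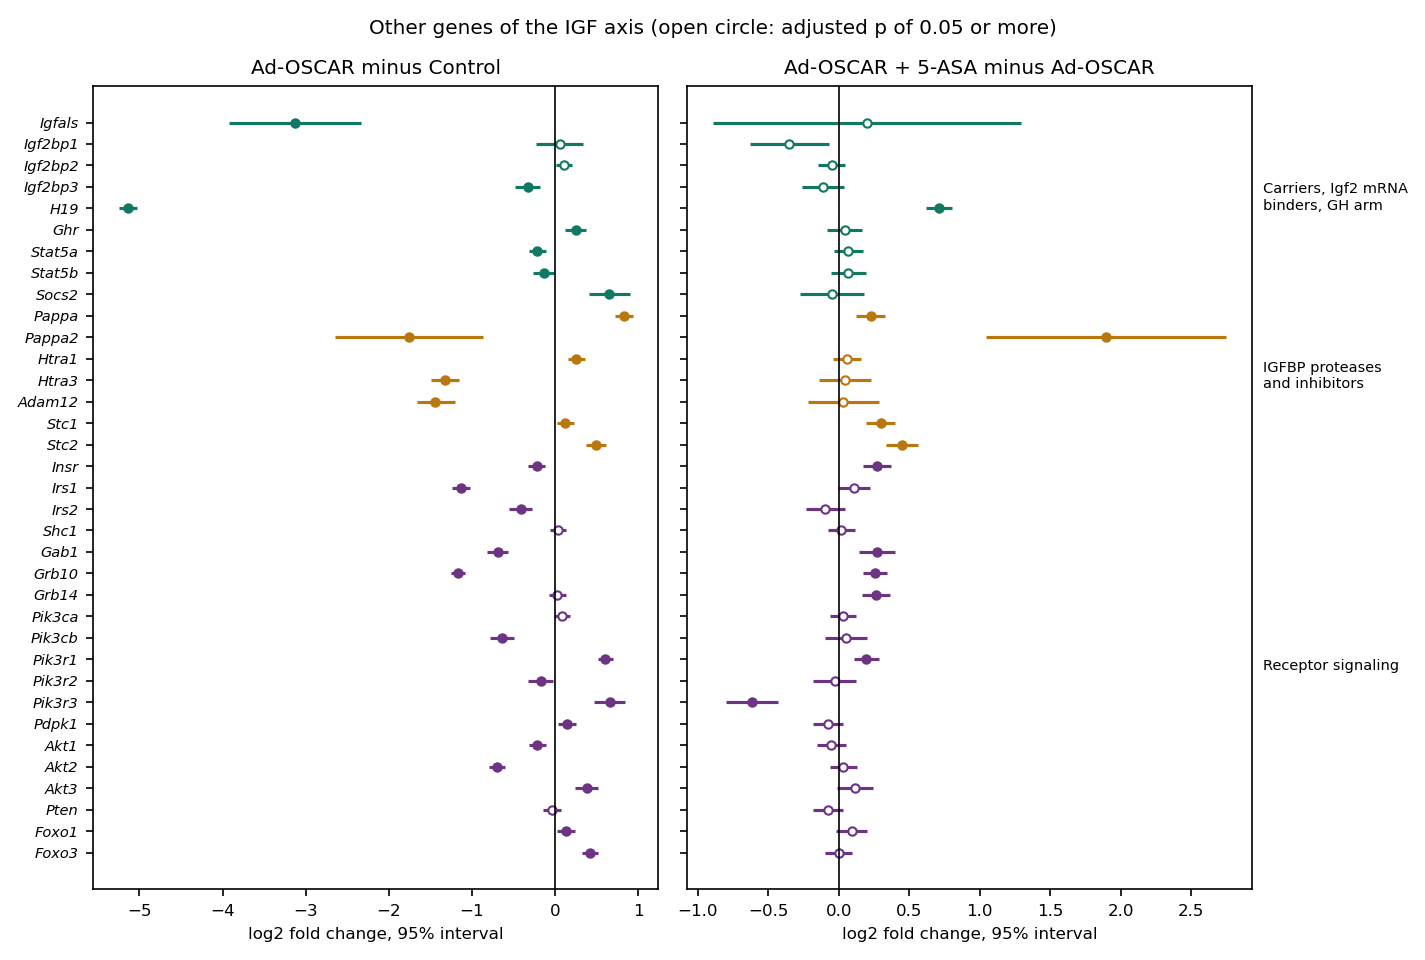
Log2 fold change (x axis) with 95% interval of the 35 tested genes of the 3 pathway lists, in Ad-OSCAR against Control (left) and Ad-OSCAR + 5-ASA against Ad-OSCAR (right). Open circles have an adjusted p of 0.05 or more. H19 (-5.14) lies farthest from 0 on the left, and most receptor signaling genes on the right are open.

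Downstream of the receptors, 19 of 20 signaling genes could be tested, and Irs4 had 0 to 4 counts per library. In Ad-OSCAR 6 were higher and 9 lower. Irs1, the docking protein of the receptor, had 173 to 187.5 CPM in Control and 78.4 to 87.2 CPM in Ad-OSCAR, at a log2 fold change of -1.13 (SE 0.05; edgeR adjusted p = 1.30e-12). Grb10, an imprinted adaptor that restrains insulin and IGF receptors, had 856 to 861 CPM and 374 to 393 CPM, at -1.17 (SE 0.04; edgeR adjusted p = 1.83e-14). Pik3r3, a regulatory subunit of PI3 kinase, was higher, with 12.2 to 15.1 CPM in Control and 19.2 to 23.5 CPM in Ad-OSCAR, at 0.66 (SE 0.09; edgeR adjusted p = 3.76e-06).

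With 5-ASA, 5 signaling genes were higher, namely Insr (0.27), Gab1 (0.27), Grb14 (0.26), Grb10 (0.26) and Pik3r1 (0.20 on the log2 scale), of which Grb10 met the rule for naming. Pik3r3 was lower, at 13.5 to 14.9 CPM, with a log2 fold change of -0.61 (SE 0.09; edgeR adjusted p = 6.54e-05). The other 13, Irs1 among them (0.11, 95% interval -0.00 to 0.22), were not called. Across the 3 lists the share called in Ad-OSCAR was 7 of 9, 7 of 7 and 15 of 19, and with 5-ASA 1 of 9, 4 of 7 and 6 of 19, beside the 65.0% and 17.8% of all genes. Over the alternatives these counts ran from 6 to 7, 5 to 7 and 11 to 15 in Ad-OSCAR and from 1 to 2, 1 to 4 and 4 to 7 with 5-ASA. List medians in Ad-OSCAR were -0.14, 0.12 and -0.04 on the log2 scale, near the 0.02 of all genes, and with 5-ASA 0.04, 0.23 and 0.03.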

How the data were processed

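The 9 libraries (TruSeq stranded mRNA, paired-end 2 × 100 reads) were processed by the authors, who trimmed reads with BBDuk, aligned them to GRCm38 with STAR 2.7.1a and quantified genes with RSEM 1.3.1. The deposited tables give, per gene, an estimated count from RSEM, which need not be whole, and a TPM value. Between 8.97% and 10.1% of genes per library had counts that were not whole, and these were rounded. Whether the counting used strand is not stated in the sources used here, and overlapping or near-identical genes may share reads. The upper limit given for genes without any counts covers counting error only. The intervals of the fold changes come from the edgeR fit and take in the spread between samples.

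Counts were tested in edgeR 4.0.16 (R 4.3.3) with the quasi-likelihood test in 1 fit of all 9 samples with group as the only factor, TMM scaling and filterByExpr (15362 genes). P-values were adjusted over all genes tested by Benjamini-Hochberg, and genes were called at an adjusted p under 0.05. The biological coefficient of variation was 5.11%. Alternatives used DESeq2 1.42.0, limma 3.58.1 on log2(TPM + 1), other scalings and filters, the replicate number as a block, and leaving out each library. No 2 libraries agreed within sampling noise (chi-square per degree of freedom 4.03 to 7.52 between replicates of a group). The scripts were tested on simulated data, with summaries in Python 3.11.15.

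The members and gene lists were chosen with earlier results of these data known. List genes were named where their mean was at least 1 CPM and they passed an absolute log2 fold change over 1 (Ad-OSCAR against Control) or 1.5-fold (5-ASA against Ad-OSCAR) at an adjusted p under 0.05; Oscar, as the check of the labels, and genes overlapping a member were named too. GENCODE M21 held 55144 of the 55471 identifiers.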

Additional observations from a re-analysis of the deposited data

How the results depend on the processing

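The number of members called was within 1.5 times that reported in 58 recomputations over the 3 comparisons and not in 2, both under the study's fold limits, with 2 members in Ad-OSCAR against Control and 1 in Ad-OSCAR + 5-ASA against Ad-OSCAR. Among recomputed log2 fold changes of single members, 558 kept their direction and their side of the threshold, 8 changed sign, 2 lost the call (Igf2 with 5-ASA against Ad-OSCAR) and 2 gained it (Igf2r with 5-ASA against Control), as given above. Those that changed sign were not called in either setting: Igf2r in Ad-OSCAR against Control was 0.0819 with library size alone, Igfbp2 with 5-ASA against Ad-OSCAR was 0.003103 with DESeq2 and 0.015 with limma on log2(TPM + 1), and Igf1r with 5-ASA against Control was -0.083 with limma. Leaving out 1 library moved the 5-ASA against Ad-OSCAR values of Igfbp2 between -0.0951 and 0.144 and of Igfbp6 between -0.29 and 0.0666. Between samples of the same replicate number, correlations of deviations from group means lay between -0.0724 and 0.0402 over all genes tested. Such low values show no pairing, but they cannot exclude cultures or batches shared by replicate number. With the replicate number as a block, 9, 6 and 8 members were called in the 3 comparisons. Calls over all genes went from 9983 to 9882, 2732 to 2500 and 9705 to 9555. Computed on CPM, not divided by length, the shares in Control, Ad-OSCAR and Ad-OSCAR + 5-ASA were 0.412%, 0.282% and 0.225% for Igfbp2, 11.3%, 11.2% and 9.57% for Igfbp3, 38.7%, 37.2% and 39.3% for Igfbp4, 37.0%, 16.8% and 16.7% for Igfbp5, 1.21%, 0.338% and 0.247% for Igfbp6, and 11.4%, 34.2% and 34.0% for Igfbp7, so Igfbp4 led in each group on that scale. The carrier and growth hormone list had 2 calls with 5-ASA in place of 1 with library size alone, with no filter, and without Ad-OSCAR replicate 2 or Ad-OSCAR + 5-ASA replicate 3. The protease list had 1 call with 5-ASA against Ad-OSCAR with limma on log2(TPM + 1), in place of 4. The cause of these shifts was not tested, apart from the scale itself in the shares. Among the members, Igfbp2 and Igfbp6 had the fewest counts, at 54 to 92 per OSCAR virus library.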
